A study of Mus musculus with 3 samples.

Results

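The 8 genes described here, Cd34, Cd44, Ly6a, Bcl11a, Meis1, Gata2, Gfi1 and Cd93, are listed as markers of early thymic progenitors, and they were taken by symbol from the 52636 gene identifiers of RNA-seq count files of normal mouse thymus. All 8 were found. The samples were 3 thymus libraries, called thymus 1, 2 and 3, from C57BL/6 mice with floxed alleles of Cic on both chromosomes that had been given tamoxifen. All 3 belong to the control group of a study of T cell lymphoma in mice that lack Cic, which encodes the repressor capicua. The labels name no Cre transgene and do not say whether a library came from 1 animal or from pooled animals, and age is not given. The lymphomas are not analysed here, so the data give levels and the spread between libraries, and no contrast between groups exists.

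T cell development in the thymus starts from rare progenitors that arrive from the bone marrow with high surface CD44 and KIT. Notch signals from the thymic stroma then drive them through double-negative stages, and they lose stem cell factors as T lineage factors such as TCF7, GATA3 and BCL11B take over. Several of the 8 genes are also used by endothelium, mast cells, B cells, dendritic cells or mature T cells. In RNA of a whole organ, fewer cells of a type and less RNA per cell cannot be told apart, and a level cannot be assigned to a cell type.

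Between 25408442 and 30414788 reads per library fell on the strand of an annotated gene. A level in CPM is the share of those reads on a gene, counts per 1e6 reads, after TMM scaling, which adjusts library sizes for composition. Errors are SDs over the 3 libraries. A count of 3 reads corresponds to 0.0985 to 0.122 CPM and marks the lower limit of detection in 1 library. The tissue label was checked against 8 genes of double-positive thymocytes, the main cells of the organ, and all 8 exceeded 10 CPM in every library, Cd8a at 1827 ± 38.6 CPM (SD, n = 3). Cic itself was at 259, 271 and 262 CPM in thymus 1, 2 and 3, a count over the whole gene that does not show whether the floxed exons were present.

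RefSeq start sites on GRCm38.p6 were found for 6 of the 8 genes, in 8 windows, with no entry for Ly6a and Cd93. Because 4 of the 8 genes encode factors that bind DNA, the windows of 300 bases (250 before to 50 after the start) were searched on both strands for the core motifs GATAA of GATA factors, TGACAG of MEIS1, AATCA of GFI1 and TGACCA of BCL11A. No motif is contained in another. Over all 32851 windows in the table these letters occur in 25.4%, 19.2%, 37.0% and 13.6%. Of the 8 windows 3 held a match. The Cd34 window held AATCA at 109 to 105 bases before the start and GATAA at bases 4 to 8 after it. The Cd44 window held GATAA at 232 to 228 bases before the start. The more downstream of the 2 Gata2 windows held AATCA on the opposite strand at 47 to 43 bases before the start. The windows of Bcl11a, Meis1 and Gfi1 and the more upstream Gata2 window held none of the 4, and neither TGACAG nor TGACCA occurred in any of the 8. A match of letters is a description and not a binding site.

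Shown here are the 250 bases before the start of the 2 surface protein genes whose windows held a match, and of the upstream start of Gata2 as the least expressed of the 8 genes, with no match. They lie at chr1:194938571-194938820 on the plus strand for Cd34, at chr2:102901666-102901915 on the minus strand for Cd44 and at chr6:88193641-88193890 on the plus strand for Gata2. Capitals mark motif matches.
Cd34: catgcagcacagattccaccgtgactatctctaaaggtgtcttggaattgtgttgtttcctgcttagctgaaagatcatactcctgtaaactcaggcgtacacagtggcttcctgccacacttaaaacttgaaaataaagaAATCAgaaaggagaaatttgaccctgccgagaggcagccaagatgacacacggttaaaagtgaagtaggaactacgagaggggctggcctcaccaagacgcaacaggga
Cd44: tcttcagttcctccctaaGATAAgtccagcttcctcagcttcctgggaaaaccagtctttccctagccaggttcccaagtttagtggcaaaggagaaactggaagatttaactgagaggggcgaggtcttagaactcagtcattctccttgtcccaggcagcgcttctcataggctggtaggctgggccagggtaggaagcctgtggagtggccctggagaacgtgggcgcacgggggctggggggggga
Gata2: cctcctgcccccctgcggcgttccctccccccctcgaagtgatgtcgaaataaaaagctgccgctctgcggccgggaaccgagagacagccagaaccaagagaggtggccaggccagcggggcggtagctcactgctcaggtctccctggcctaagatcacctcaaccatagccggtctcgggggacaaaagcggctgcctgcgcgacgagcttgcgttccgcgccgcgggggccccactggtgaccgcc

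Gfi1 and Ly6a were by far the most abundant of the 8, and Gata2 was close to the limit of detection. Gfi1 and Ly6a drew 74.1% of the summed CPM of the 8 genes, and the other 6 genes 25.9%. In CPM the order was Gfi1, Ly6a, Cd44, Cd34, Meis1, Bcl11a, Cd93 and Gata2, and 7 of the 8 reached 1 CPM in every library. Longer transcripts gather more reads, so the CPM order is one of reads drawn, and levels of different genes were compared per kilobase of exon, over the joined exons of all annotated isoforms. On that scale the order was Ly6a at 81.6 ± 10.99, Gfi1 at 43.9 ± 3.41, Cd44 at 5.59 ± 0.590, Cd34 at 2.88 ± 0.309, Cd93 at 1.01 ± 0.0983, Meis1 at 0.896 ± 0.0542, Bcl11a at 0.605 ± 0.108 and Gata2 at 0.0667 ± 0.0139 CPM per kilobase (SD, n = 3). Ly6a was 1224 times Gata2. Only 3 of the 8 genes keep on this scale the rank they had in CPM.

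No neighbours in the per-kilobase order overlapped over the 3 libraries, but some lay close. Cd93 spanned 0.948 to 1.12 and Meis1 0.835 to 0.938 CPM per kilobase, a ratio of means of 1.12, and in CPM their order was the opposite. The exon length of Meis1 includes 1029 bases shared with another gene on its strand, where reads cannot be assigned. Its level per kilobase is therefore a low estimate, and its place below Cd93 is uncertain. Bcl11a stood at a ratio of 1.48 below Meis1. The gap from Gfi1 down to Cd44 was 7.85-fold and that from Bcl11a down to Gata2 was 9.07-fold. The median over 16529 tested genes with a known length was 4.98 CPM per kilobase. Ly6a was at percentile 97.0 of these genes, Gfi1 at 93.0, Cd44 at 52.6 and Cd34 at 39.7. Cd93, Meis1 and Bcl11a were at percentiles 23.4, 21.8 and 16.3. Gata2 had too few reads to enter the tested set.

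**Figure D1:**
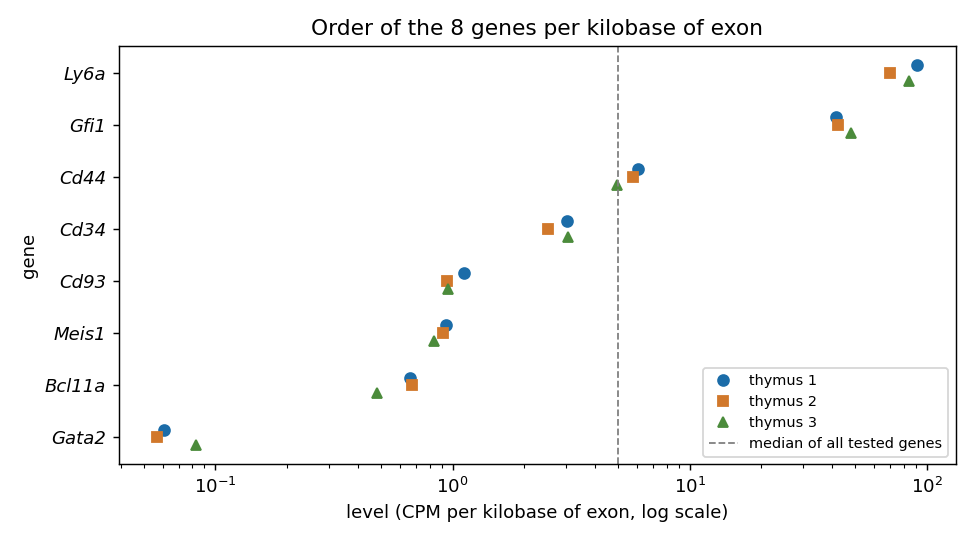
Level of each of the 8 genes in CPM per kilobase of exon (log axis), with 1 symbol per thymus library and the median of all tested genes, 4.98, as a dashed line. Ly6a and Gfi1 lie above the line in all libraries, Cd44 lies around it, and Gata2 lies 9.07-fold below its nearest neighbour.

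Among the surface proteins, Ly6a stood highest. It encodes Sca-1, a membrane-anchored protein of blood stem cells that mature T cells and endothelium also carry. Ly6a (chromosome 15, 74994877 to 74998031, minus strand, GRCm38) was at 110, 84.0 and 101 CPM in thymus 1, 2 and 3, a mean of 98.4 ± 13.2 CPM. Thymus 2 was lowest, and the highest library was 1.31 times the lowest. The gene shares 19.0% of its 50-base stretches with transcripts of other genes, mainly Ly6c1, and reads that map equally well to several places were not counted, so its level is a low estimate.

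Cd44 encodes the hyaluronan receptor whose high surface level defines early progenitors and which activated T cells and myeloid cells also carry. Cd44 (chromosome 2, 102811141 to 102901665, minus strand) was at 41.0, 39.3 and 33.3 CPM in thymus 1, 2 and 3, a mean of 37.9 ± 3.997 CPM. Thymus 3 was the lowest, and thymus 1 and 2 lay close together. None of its 50-base stretches occurs in another gene.

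Cd34 encodes a sialomucin of blood progenitors and endothelium. Cd34 (chromosome 1, 194938819 to 194961279, plus strand) was at 22.3, 18.4 and 22.3 CPM in thymus 1, 2 and 3, a mean of 21.0 ± 2.25 CPM. Thymus 2 was the low library here, as for Ly6a. Cd93 encodes a C-type lectin-like receptor known as AA4.1 on early progenitors and found also on endothelium. Cd93 (chromosome 2, 148436640 to 148443563, minus strand) was at 7.48, 6.33 and 6.36 CPM, a mean of 6.73 ± 0.656 CPM. Its 95% Poisson intervals, which cover counting error only, were 6.54 to 8.52, 5.45 to 7.31 and 5.404 to 7.44 CPM, and all 3 overlap.

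Of the transcription factors, Gfi1 was the highest. It encodes a zinc finger repressor of stem cells that thymocytes keep using during their maturation. Gfi1 (chromosome 5, 107716657 to 107726036, minus strand) was at 132, 135 and 152 CPM in thymus 1, 2 and 3, a mean of 139.8 ± 10.9 CPM. Thymus 3 was the high library, and the highest was 1.15 times the lowest.

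Meis1 and Bcl11a were much lower. Meis1 encodes a homeodomain factor that acts with HOX and PBX proteins in blood stem cells. Meis1 (chromosome 11, 18879817 to 19018985, minus strand) was at 9.88, 9.63 and 8.79 CPM, a mean of 9.43 ± 0.571 CPM. Its coefficient of variation (SD over mean) of 6.05% was the smallest of the 8. Bcl11a, a zinc finger repressor needed by lymphoid progenitors and B cells, lies on chromosome 11 (24078056 to 24174123, plus strand). Bcl11a was at 8.73, 8.85 and 6.32 CPM, a mean of 7.97 ± 1.43 CPM. Thymus 3 stood below the other libraries, which lay close together, and the highest library was 1.40 times the lowest.

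Gata2 encodes a zinc finger factor required by blood stem cells and also active in mast cells and endothelium. Gata2 (chromosome 6, 88193891 to 88207032, plus strand) had 10, 9 and 11 reads in thymus 1, 2 and 3, or 0.328, 0.306 and 0.446 CPM. All 3 counts exceeded the limit of 3 reads. The 95% Poisson intervals ran from 0.157 to 0.604, 0.140 to 0.582 and 0.222 to 0.797 CPM, so no difference between thymi was detectable at this depth.

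**Figure D2:**
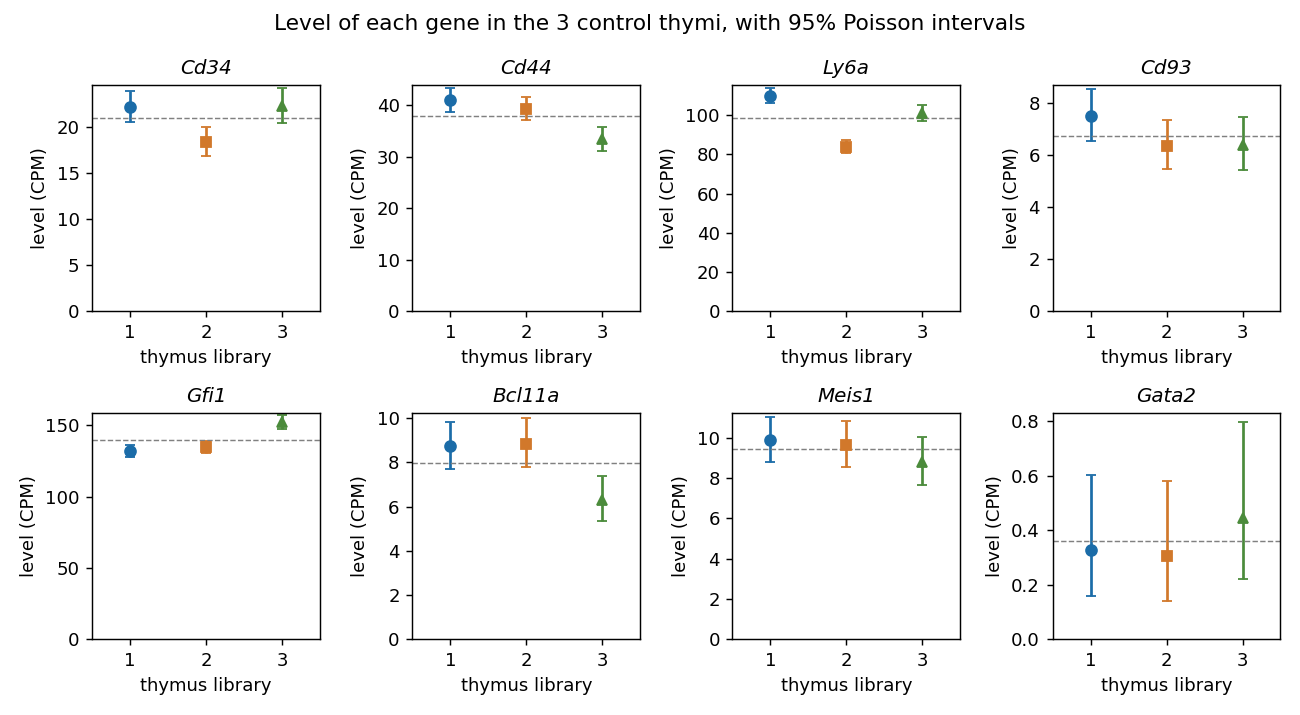
CPM of each gene in thymus 1, 2 and 3 (axes start at 0), with 95% Poisson intervals of the counts and the mean of the 3 libraries as a dashed line. Ly6a and Cd34 are lowest in thymus 2, Cd44 and Bcl11a are lowest in thymus 3, and Gfi1 is highest there.

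The spread between thymi was tested for the 7 genes with enough reads. A quasi-likelihood fit in edgeR compared each gene with others of like abundance, and a Poisson goodness of fit asked whether the 3 counts differed by more than counting error. By the former, 0 of the 7 genes were more variable than the trend at an adjusted p of 0.05, against 0.0604% of all 16548 tested genes. At an unadjusted p under 0.05 there were 0 of the 7, against 4.42% of all tested genes. DESeq2 dispersion outliers also numbered 0 of 7, against 0.489% of all tested genes. Ly6a came closest, with an unadjusted p of 0.0657 and an adjusted p of 0.984 in edgeR. By the goodness of fit 5 of the 7 varied beyond counting noise, where 43.4% of all tested genes did. Adjusted p-values in edgeR were 8.97e-23 for Ly6a, 2.5e-09 for Gfi1, 5.65e-05 for Cd44, 0.0028 for Cd34 and 0.00325 for Bcl11a. Meis1, at 0.519, and Cd93, at 0.256, did not pass. The 4 genes with the most reads were among the 5, and more reads make a given difference easier to detect.

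These calls rest in part on single libraries. Without thymus 3 only Cd34 and Ly6a passed the goodness of fit, 2 genes against 22.3% of all tested genes. Without thymus 2, Cd34 no longer passed, and 4 genes did, against 26.2% of all tested genes. For the 7 genes the highest library was 1.12 to 1.40 times the lowest. The median coefficient of variation was 10.6% over the 7 genes and 9.06% over all tested genes.

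The 8 genes did not share 1 order of the thymi. Cd44, Ly6a, Meis1 and Cd93 were highest in thymus 1, which was the highest library for 24.1% of all tested genes. Cd34, Gata2 and Gfi1 were highest in thymus 3 (37.9% of tested genes) and Bcl11a in thymus 2 (38.0%). Cd34, Ly6a, Gata2 and Cd93 were lowest in thymus 2 (36.0%), Cd44, Bcl11a and Meis1 in thymus 3 (39.7%), and Gfi1 in thymus 1 (24.3%). Not all of these ranks exceed counting error. Meis1 and Cd93 did not pass the goodness of fit, and Gata2 was not tested. For Cd34, thymus 1 and 3 were nearly equal, at 22.25 and 22.32 CPM. The median log2 deviation from the gene mean over the 7 tested genes came to 0.12, −0.05 and −0.08 for thymus 1, 2 and 3, against 0.00071, 0.0048 and −0.0051 over all tested genes.

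Markers of other cell types were set beside the genes, as sums of CPM over each list in thymus 1, 2 and 3. Over all tested genes 39.7% were lowest in thymus 3, as Bcl11a, Cd44 and Meis1 were. B cell markers (8 genes, led per kilobase by Cd79b) summed to 119.7, 115.3 and 89.0 CPM, with 7 of 8 lowest in thymus 3. Macrophage and dendritic cell markers (11 genes, led by Lyz2) summed to 1218, 1006 and 917 CPM, with 11 of 11 lowest there. Other lists also had most genes lowest in thymus 3. Endothelial markers (12 genes, led by Pecam1) summed to 139.7, 153.8 and 126.9 CPM, with 8 of 12 lowest in thymus 3. Markers of mature and innate-like T cells (9 genes, led by Itgb7) summed to 291, 285 and 279 CPM, with 7 of 9 lowest there. T commitment genes (14 genes) summed to 8169, 8230 and 7938 CPM, with 9 of 14 lowest there. Progenitor transcription factor genes (16 genes) summed to 1521, 1560 and 1457 CPM, with 13 of 16 lowest there. Double-positive thymocyte genes (8 genes) summed to 7877, 8121 and 7965 CPM, lowest in thymus 1. Plasmacytoid dendritic cell markers (7 genes) summed to 250.7, 256.6 and 257.8 CPM, with 3 of 7 lowest and 4 highest in thymus 3. Ptprs, their gene of highest CPM, gave 128, 136 and 143 CPM of this. Without Ptprs, left out after seeing the data, the sums were 122.7, 121.0 and 114.9 CPM, lowest in thymus 3. The part of these cell types in the levels of Bcl11a and Cd44 in thymus 3 was not tested.

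Ly6a and Cd34 were lowest in thymus 2. The sums of the mast cell and mesenchymal lists were also lowest there, but not once their gene of highest CPM was left out, a step added after seeing the data. Mast cell and basophil markers (7 genes) summed to 24.8, 18.9 and 24.1 CPM, of which the mast cell protease gene Cpa3 gave 10.6, 5.86 and 12.4 CPM. Without Cpa3 the sums were 14.3, 13.0 and 11.7 CPM, lowest in thymus 3. In every library 5 of the 7 genes reached 1 CPM. The other 2, the high-affinity IgE receptor genes Fcer1a and Ms4a2, were below 1 CPM in every library. Mesenchymal markers (7 genes) summed to 182, 160 and 183 CPM, of which Dcn gave 108, 78.9 and 108 CPM. Without Dcn the sums were 74.9, 81.1 and 75.2 CPM, highest in thymus 2. In either list 4 of 7 genes were lowest in thymus 3. The endothelial sum was highest in thymus 2, where Cd34 was lowest. Pecam1 gave 102, 113 and 92.0 CPM of it, and without Pecam1 it was 37.5, 40.6 and 34.9 CPM. Surface receptor genes of progenitors (13 genes) summed to 3246, 2901 and 3231 CPM, and to 1614, 1538 and 1603 CPM without Ccr9. Both sums were lowest in thymus 2, with 6 of the 13 genes lowest there and 6 in thymus 3. Neutrophil markers summed to 19.9, 16.6 and 41.5 CPM and red cell markers to 1023, 47.0 and 223 CPM. These too were lowest in thymus 2, with and without their gene of highest CPM. The part of these cell types in the levels of Ly6a and Cd34 was not tested. No marker in any of these lists was at 0 in all libraries.

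**Figure D3:**
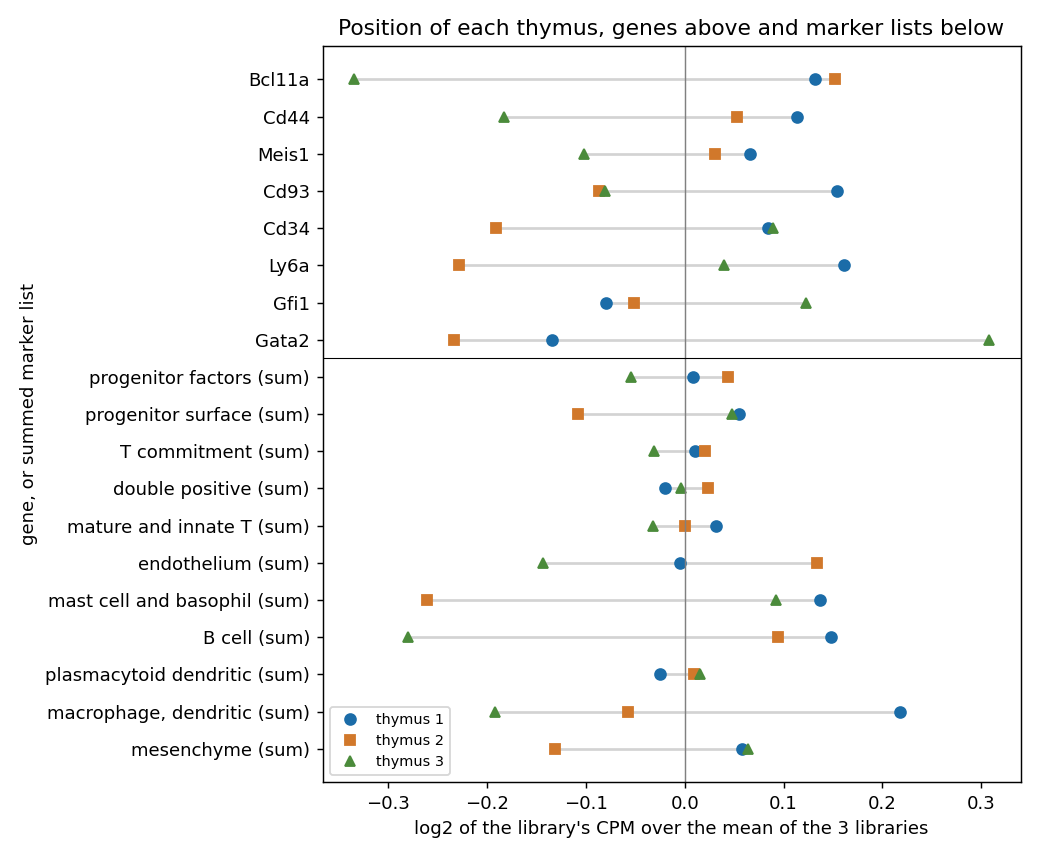
Log2 of the CPM in each thymus over the mean of the 3, for the 8 genes above the line and for summed marker lists below it. Bcl11a and Cd44 have thymus 3 at the left, as do the B cell, macrophage, endothelial, progenitor factor, T commitment and mature T lists. Cd34 and Ly6a have thymus 2 at the left, as do the progenitor surface, mast cell and mesenchymal lists. Without Cpa3 and Dcn the mast cell and mesenchymal sums are not lowest in thymus 2. The progenitor surface sum without Ccr9 still is.

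Each transcription factor was compared within libraries with relatives of the same family, per kilobase of exon. Bcl11b, the T cell commitment factor, exceeded Bcl11a by 85.9, 92.5 and 121 times in thymus 1, 2 and 3. The difference was largest in thymus 3, where Bcl11a was lowest. Gata3, required for T cell development, exceeded Gata2 by 202, 237 and 158 times, a mean of 199 ± 39.6 that rests on the 9 to 11 reads of Gata2. Gata1, the erythroid and mast cell member, was at 0.722, 1.33 and 1.01 CPM, and Gata2 was 0.169 ± 0.0566 times Gata1 per kilobase. For the GFI pair the order was reversed, and Gfi1 exceeded Gfi1b, which acts in erythroid and platelet precursors, by 231, 120 and 144 times. Gfi1b had 10, 19 and 15 reads (0.528 ± 0.174 CPM), too few to be tested, so these ratios rest on few reads.

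Meis1 was the lower of the MEIS genes, at 0.663 ± 0.0210 times Meis2 and 0.122 ± 0.00453 times Meis3 per kilobase, ratios that varied little between libraries. Of other homeodomain relatives, Pbx3 was at 0.9997 ± 0.0338 and Pknox1 at 17.7 ± 1.58 CPM per kilobase.

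Relatives of the surface proteins spanned a wide range. Ly6e was higher than Ly6a, which stood at 0.298 ± 0.0634 times Ly6e per kilobase, lowest in thymus 2 at 0.225. Ly6d, at 604 ± 89.5 CPM per kilobase, was the highest of the LY6 genes shown. Ly6a exceeded the myeloid and lymphoid genes Ly6c2 and Ly6c1 by 9.004 ± 0.642 and 19.0 ± 2.67 times. Cd34 exceeded Podxl, its closest relative on endothelium, by 7.65 ± 2.33 times per kilobase. Cd93 was 1.80 ± 0.453 times Clec14a and 0.783 ± 0.0419 times Thbd, both endothelial relatives with lectin-like domains. Lyve1, a lymphatic hyaluronan receptor with the same link domain as CD44, was at 0.917 ± 0.173 CPM.

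**Figure D4:**
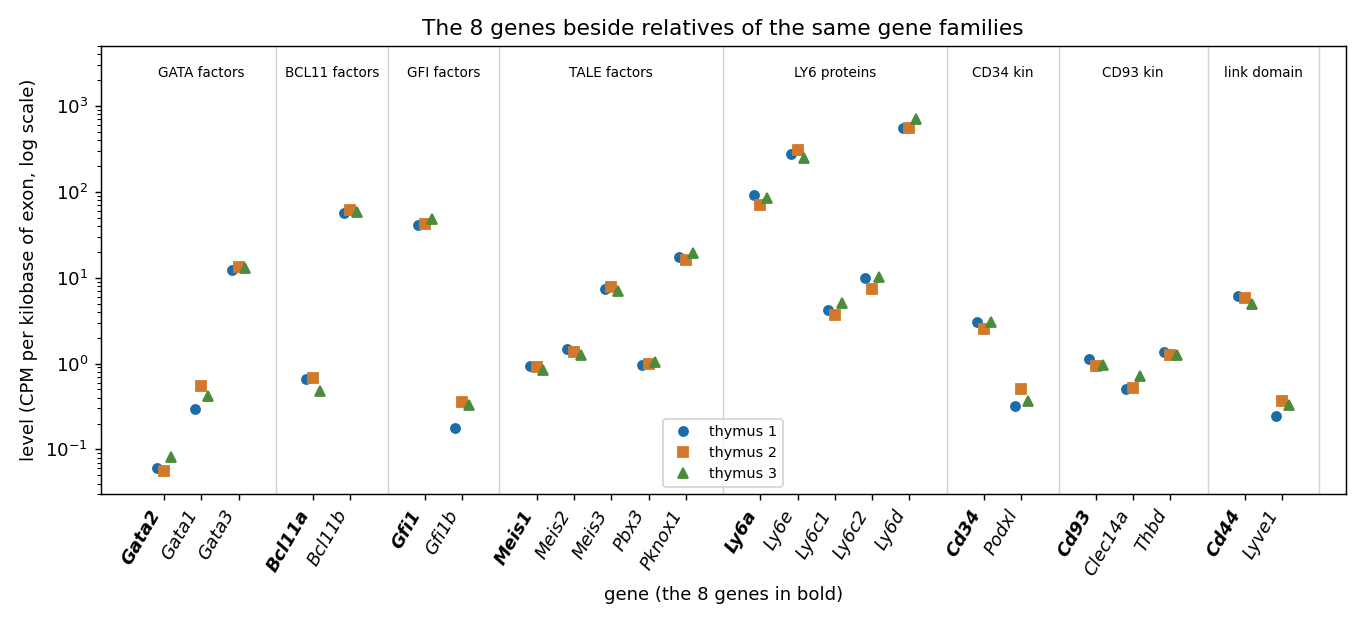
CPM per kilobase of exon (log axis) of the 8 genes, in bold, and of relatives of the same families, with 1 symbol per thymus library. Gata2 and Bcl11a lie at least 85.9-fold below Gata3 and Bcl11b in every library, while Gfi1 lies 231, 120 and 144 times above Gfi1b, which had 10 to 19 reads.

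The other genes of the progenitor programme were read from 3 lists. Of 16 transcription factor genes of early progenitors 14 reached 1 CPM in every library, and 7 reached 10 CPM. They were led per kilobase by Myb (125 ± 2.82), Fli1 (19.7 ± 0.102) and Irf8 (12.6 ± 1.38 CPM per kilobase), which later blood cells also express. Of the stem cell and progenitor factors, Lmo2 (3.57 ± 0.392) and Lyl1 (1.68 ± 0.0959) lay above Meis1 per kilobase, and Hhex (0.683 ± 0.100) and Mef2c (0.434 ± 0.0127) below it. Of the 15 tested, 0 were more variable than the trend in edgeR (adjusted p of 0.05, 0 at an unadjusted p under 0.05), and 5 varied beyond counting noise, against 43.4% of all tested genes. Of the 16 genes 13 were lowest in thymus 3, where 39.7% of all tested genes were lowest.

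Of 13 surface receptor genes of progenitors 12 reached 1 CPM in every library, led per kilobase by Ccr9 (150 ± 15.1), Cd27 (147 ± 8.97) and Cd24a (141 ± 20.6 CPM per kilobase). Kit, the receptor that defines the earliest progenitors together with CD44, was at 11.98, 11.03 and 8.35 CPM in thymus 1, 2 and 3. Flt3 was at 15.9, 14.9 and 10.4 CPM. Both were lowest in thymus 3, as Cd44 and Bcl11a were. Cd34 per kilobase was 2.53 ± 0.655 times Kit. Of the 12 tested, 0 were more variable than the trend in edgeR, where 0.0604% of all tested genes were, with 2 at an unadjusted p under 0.05 (4.42% of all tested genes). Beyond counting noise varied 11 of the 12 (43.4% of all tested genes). Among genes with a mean of at least 5 CPM that share was 59.6%, and 10 of the 13 genes reached 10 CPM in every library.

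The list of T lineage commitment held 14 genes, all of at least 1 CPM in every library and 12 of at least 10 CPM. Tcf7 (1001 ± 68.6), Rag1 (616 ± 25.6) and Cd3e (72.4 ± 4.49 CPM per kilobase) led it. All 3 exceeded Gfi1 per kilobase, and Tcf7 and Rag1 also exceeded Ly6a. Of the 14 genes 0 were more variable than the trend in edgeR, where 0.0604% of all tested genes were, with 3 at an unadjusted p under 0.05 (4.42% of all tested genes). Beyond counting noise varied 12 of the 14 (43.4% of all tested genes, and 59.6% of genes with a mean of at least 5 CPM).

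Genes most alike in their pattern over the thymi were sought among the 137 genes of the other lists that reached 1 CPM in every library. Likeness was the distance between the 3 log2 deviations from the gene mean, so it rests on 3 libraries. Genes close by this measure can differ in their order of the thymi. Cd93, for example, was lowest in thymus 2 and C1qa in thymus 3. Close to Cd34 was Ccr9 (distance 0.0161). Ly6a was closest to Klrd1 (0.0414), Cd44 to Pdgfrb (0.0215) and Cd79b (0.0224), and Bcl11a to Foxp3 (0.0315) and Cldn5 (0.0345). Meis1 was closest to Cd27 (0.031) and Cd4 (0.0402), Cd93 to C1qa (0.0406) and Lmo2 (0.0544), and Gfi1 to the thymic epithelial genes Ccl25 (0.034) and Prss16 (0.0607).

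Reads on the opposite strand showed how cleanly each gene was counted. Gata2 and Cd34 had 0 such reads in all 3 libraries, and Bcl11a had 1. In Gfi1 they made up 0.263% of the reads of both strands and in Meis1 3.73%. Gfi1 overlaps the noncoding gene A430072P03Rik on the opposite strand by 101 bases of exon, and that gene had 79, 96 and 88 reads of its own. Antisense genes overlap exons of Cd34 (Gm16897, 148 bases) and Bcl11a (4930538E20Rik, 316 bases), with 4 and 0 reads over the 3 libraries. When reads of either strand were counted, reads in those overlaps became ambiguous, and Cd34 and Bcl11a kept 92.9% and 93.0% of their reads. Meis1 shares 1029 bases of exon with Gm37818 on its own strand, where reads cannot be assigned to either gene, so its level is a low estimate. Apart from genes that overlap it, 0.120% of its 50-base stretches occur in other genes. Its antisense gene Gm16140 overlaps 896 bases and had 2 reads.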

How the data were processed

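Per the labels' protocols, RNA was isolated with a column kit and made into stranded poly(A) libraries. The authors deposited raw counts of reads by gene, and the submitters' processing notes name STAR 2.5.3a, DESeq2 and GRCm38. For annotation, trimming or filters, nothing is given in the sources used here. The reverse-strand column was used. STAR's counts leave out reads that map to several places. Lines for unmapped, multimapping, unassigned and ambiguous reads (30.9% to 33.6% of reads) entered no total. Symbols, positions and exon lengths come from GENCODE M21, which matched 52489 of 52636 identifiers.

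R 4.3.3 with edgeR 4.0.16 filtered low counts (minimum 10, total 15), leaving 16548 genes, scaled by TMM and fitted an intercept with robust quasi-likelihood. Each gene's spread over its trended prior was referred to an F distribution, one-sided. The goodness of fit used a dispersion of 0. Both were adjusted by Benjamini-Hochberg over all tested genes and tested on simulated data. DESeq2 1.42.0 served as an alternative. The labels name no animals, so p-values rest on a spread between libraries that may be technical. Log2 deviations used a prior count of 2.

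The members and lists were chosen with earlier results of these data known. The naming rule took the 8 genes, their family relatives, the 3 highest genes per kilobase of each other list, the 2 nearest in pattern and genes overlapping on the opposite strand. Lmo2, Mef2c, Hhex, Lyl1, Kit, Flt3, Fcer1a, Ms4a2 and Gm37818 were named after their values were seen. Lists for thymic epithelium, fat, neutrophils and red cells served in the search for like patterns and as sums of 2016 to 2181, 188 to 257, 16.6 to 41.5 and 47.0 to 1023 CPM. Some genes that the rule takes are left out of the text.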

Additional observations from a re-analysis of the deposited data

Results flagged for a closer look

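Opposite-strand reads, which enter no level above, exceeded 3 in every library for 2 of the 8 genes, the limit that a count of 0 allows. Meis1 had 13, 9 and 9 of them in thymus 1, 2 and 3, or 31 in all. Gfi1 had 4, 9 and 18, also 31 in all, and its own level was highest in thymus 3 as well. Groups of 3 libraries are too small for a check for outlying samples.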

How the results depend on the processing

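The number of genes of the 8 at 1 CPM or more stayed at 7 under all 6 alternatives tried (reads of either strand, DESeq2 size factors, library totals, each library left out), and 0 were more variable than the trend under all 10. With no filter on low counts, Ly6a had an unadjusted p of 0.0222 in edgeR (adjusted p = 0.572), and without thymus 3 its unadjusted p was 0.00116 (adjusted p = 0.116). The count of genes beyond counting noise ran from 2 to 5 with 1 library left out, lowest without thymus 3, and was 5 under the other alternatives. The share of all tested genes beyond counting noise was 39.7%, 26.2% and 22.3% without thymus 1, 2 and 3. It was 22.1% with no filter on low counts and 59.6% among genes with a mean of at least 5 CPM. With reads of either strand, DESeq2 size factors or library totals it was 41.7%, 43.4% and 46.8%. The number highest in thymus 2 rose from 1 to 2 with library totals and to 2 with the trend with GC content removed. Per kilobase of exon 3 of the 8 genes kept their rank by CPM. All 48 alternative mean levels of single genes moved by less than 1 SD. For the means with 1 library left out this was all but fixed in advance. Dropping 1 of 3 values cannot move their mean by 1 SD, apart from small changes in scaling. Gata2, at 9 to 11 reads, is limited by depth. No paired analysis was possible because there is 1 group. Leaving the gene of highest CPM out of each summed marker list was added after seeing the data.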
